A study of Drosophila melanogaster with 8 samples.

Results

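The comparison described here is a Drosophila melanogaster genotype that carries a deletion allele of TBPH, the fly gene for TDP-43, over a deficiency chromosome (dTDP-43Δ142/Df(2R)106), set against wild type. It was defined by the sample titles alone and takes 4 of the 8 libraries of the series, 2 of the deficiency genotype and 2 of wild type, with all annotated genes. The other 4 libraries are 2 from flies with deletion alleles on both chromosomes (dTDP-43Δ23/Δ142, called the double-deletion genotype below) and 2 labelled gain of function (act5c>dTDP-43), in which the promoter of the ubiquitous actin 5C gene drives dTDP-43. The wild-type libraries are titled Canton S and w1118, which are 2 laboratory stocks, while their genotype field names w1118 alone. Every library was made from 150 pooled heads of late pupae aged 73 to 90 hours after puparium formation, by SOLiD sequencing of total RNA after removal of ribosomal RNA. The sources used here do not give the extent of the deletions or of the deficiency, the sex of the pupae, or whether the 2 libraries of a genotype came from separate crosses, so the p-values below rest on library spread that may be technical.

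TDP-43 is an RNA-binding protein of the nucleus that binds UG-rich stretches of transcripts and acts in splicing, transcript stability and transport. In people its cytoplasmic inclusions mark most cases of amyotrophic lateral sclerosis, and flies that lack TBPH show defects of motor neurons, neuromuscular junctions and emergence of the adult from the pupal case. A deficiency removes a stretch of chromosome, so flies with a deletion allele over a deficiency that covers TBPH lack an intact copy of it and have a single copy of the other genes in that stretch. The late pupal head holds differentiating neurons, glia, photoreceptors, head muscle, fat body and epidermis that is laying down adult cuticle.

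The deficiency libraries held 858067 and 929745 counts, against 868003 and 716027 counts in wild type, and 9252 of the 15141 genes had enough counts to be tested. Levels are given as CPM, counts per 1000000 counts of the library, after TMM scaling of the library sizes. The smallest number read as a level was 3 counts. Taken over the unscaled library totals, this is 3.5 and 3.23 CPM in the deficiency libraries and 3.46 and 4.19 CPM in wild type. Head cell types were present in both genotypes. The summed level of 5 neuronal markers was 794.5 and 764.3 CPM in the deficiency libraries, against 679.2 and 664.3 CPM in wild type, and that of 5 glial markers was 538.9 and 600.5 CPM against 477.9 and 510.0 CPM. The 2 deficiency libraries differed from each other more than the 2 wild-type libraries did, with a chi-square per degree of freedom over genes of 7.12 against 3.62. In bulk RNA, fewer cells of a type and less RNA per cell cannot be told apart.

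TBPH itself was read at 49.4 and 30.8 CPM in the deficiency libraries, 40.2 and 44.2 CPM in the double-deletion libraries, 55.1 and 38.8 CPM in the libraries labelled gain of function, and 49.8 and 57.1 CPM in wild type. The libraries labelled gain of function thus showed no excess of TBPH counts (log2 fold over wild type -0.18). Both deficiency levels lay below both wild-type levels, replicate 1 by less than 1 CPM. Its log2 fold over wild type was -0.42 with a 95% confidence interval of -1.1 to 0.267 and did not pass the test (edgeR quasi-likelihood test, adjusted p = 0.54). Counts over the whole gene do not check a deletion whose extent is unknown.

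At an adjusted p of 0.05, 52 genes were higher in the deficiency genotype than in wild type, 0.562% of the genes tested, and 103 were lower, 1.11% of the genes tested (edgeR quasi-likelihood test, Benjamini-Hochberg adjustment over all 9252 genes). The rises had a median log2 fold of 1.73 and the falls one of -1.90. All 155 called genes had groups that do not overlap, as did 49.6% of all genes tested. The count rested on single libraries. Without wild-type replicate 1 it was 6 higher and 3 lower, and without wild-type replicate 2 it was 4 higher and 0 lower. It was 43 and 39 without deficiency replicate 1, 55 and 58 without deficiency replicate 2, 38 and 49 or 42 and 53 without 1 of the double-deletion libraries, and 152 and 351 or 157 and 337 without 1 of the libraries labelled gain of function, which share the estimate of spread. DESeq2 gave 70 higher and 75 lower, limma-voom 10 and 28, and edgeR with a minimum count of 50 gave 12 and 28. At an unadjusted p under 0.05, 676 genes were higher (7.31% of genes tested) and 940 lower (10.2%). Of the 59 called genes named in this description, Map205, snoRNA:Psi18S-640f and snoRNA:Psi18S-525i remained called without each of the 8 libraries in turn.

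**Figure D1:**
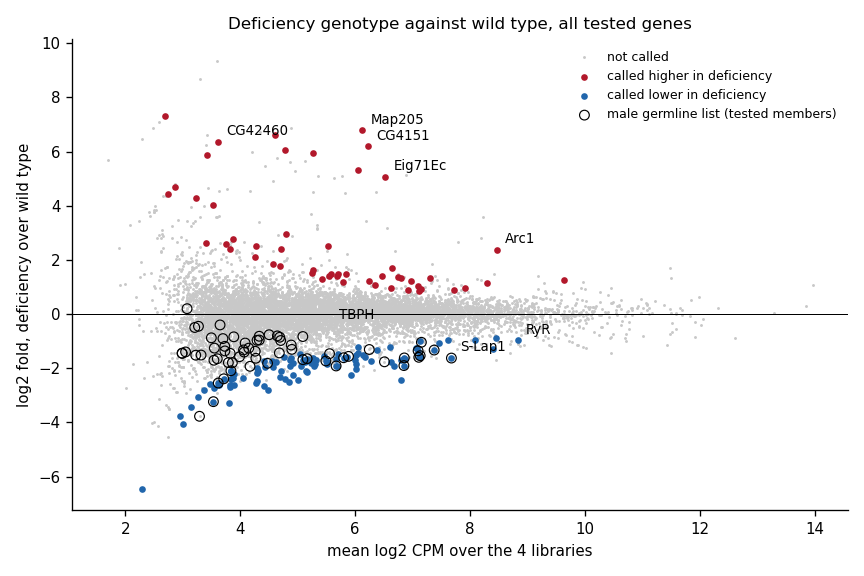
Log2 fold of the deficiency genotype over wild type against the mean log2 CPM of the 4 libraries, 1 point for each of the 9252 genes tested. The 52 rises are red, the 103 falls blue, and open circles mark the 62 tested members of a male germline list described below, of which 61 lie below 0.

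The gene with the smallest p was Map205, which encodes a microtubule-associated protein. It was read at 703 and 593 CPM in the deficiency libraries, 745 and 645 CPM in the double-deletion libraries, 526 and 699 CPM in the libraries labelled gain of function, and 6.94 and 4.29 CPM in wild type. All 6 libraries of the mutant and transgenic genotypes were high and only the wild-type libraries were low (log2 fold of the deficiency genotype 6.79, SE 0.31, edgeR adjusted p = 3.2e-07). Of the other 25 tested genes of a microtubule list none rose and 1, betaTub85D, fell; the median log2 fold of all 26 was -0.05, beside 0.01 over all genes tested. Arc1, a Gag-like protein that forms capsids and carries its own mRNA across the neuromuscular junction, was at 638 and 975 CPM in the deficiency libraries, 882 and 922 CPM in the double-deletion libraries, and 169 and 143 CPM in wild type (log2 fold 2.37, SE 0.26, edgeR adjusted p = 0.0019). It was the called member among the 9 tested genes of an activity-induced list, whose median was 0.19. EcR, the ecdysone receptor, was at 377 and 367 CPM in the deficiency libraries, 467 and 442 CPM in the double-deletion libraries and 334 and 339 CPM in wild type, and did not pass the test (log2 fold 0.15, edgeR adjusted p = 0.71).

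The ecdysone-induced genes of the Eig71E cluster, which at pupariation are among the late puffs of salivary gland chromosomes, were higher in the deficiency genotype as a run of neighbours. Their levels summed over 11 genes were 3873.7 and 1706.8 CPM in the deficiency libraries, 768.9 and 992.0 CPM in the double-deletion libraries, and 116.9 and 51.4 CPM in wild type. Deficiency replicate 1 was the highest of the 8 libraries, the library labelled gain of function, replicate 2, reached 1743.2 CPM, and the wild-type libraries were the lowest. Of the 10 tested members, 3 rose. Eig71Eg was at 370.1 and 189 CPM in the deficiency libraries, 47 and 82.1 CPM in the double-deletion libraries, and 6.94 and 1.43 CPM in wild type (log2 fold 5.93, SE 0.59, edgeR adjusted p = 0.0054). Eig71Ec was at 747 and 324 CPM in the deficiency libraries, 94 and 239 CPM in the double-deletion libraries, and 19.7 and 11.4 CPM in wild type (log2 fold 5.07, SE 0.74, edgeR adjusted p = 0.045). Eig71Ef had a log2 fold of 5.32 (edgeR adjusted p = 0.048). Eig71Eh had no count in wild type and was at least 41.4-fold higher in the deficiency genotype, taken against a floor of 3 counts over the group, and Eig71Ei likewise at least 25.8-fold, but neither passed the test. Reads shared between these similar genes could be split by the authors' counting, for which the sources at hand state no rule on reads with several matches. A running median over 11 neighbouring tested genes peaked here at 5.09 in the deficiency genotype and stood at 3.39 in the double-deletion genotype. Both are folds over the same wild-type libraries. Both also include members with almost no wild-type counts, which could be tested only through the libraries in which they were high.

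The wider set of ecdysone-response genes, which includes Eig71E genes, held these 3 rises and no falls among 34 tested. Of the 34, 25 had positive folds, and the median log2 fold was 0.59, ranging from 0.30 to 0.67 over the alternatives. All 10 tested Eig71E genes had positive folds. Members with almost no wild-type counts could be tested only through the libraries in which they were high, which favoured a positive fold. This also bears on the median of the set, whose values without the Eig71E genes were not computed. Over all 9252 genes tested, 0.562% rose, 4679 had positive folds and the median was 0.01. DESeq2 called 11 of the 34 higher and limma-voom called 0. Cyp18a1, the 26-hydroxylase that inactivates ecdysteroids, rose as well. It was at 68.7 and 53.9 CPM in the deficiency libraries, 52.1 and 57.3 CPM in the double-deletion libraries, and 20.8 and 21.4 CPM in wild type (log2 fold 1.53, SE 0.32, edgeR adjusted p = 0.042). Among 8 tested genes of ecdysteroid synthesis and turnover, 7 had positive folds, with a median of 0.83. The summed level of this list was 176.0 and 140.8 CPM in the deficiency libraries and 75.2 and 81.4 CPM in wild type.

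Beside rises in 0.562% of all genes tested, 4 of 48 tested cytochrome P450 genes rose, Cyp18a1 among them, with no falls. The others belong to families known for oxidising foreign compounds. Cyp6a20 was at 15.7 and 23.1 CPM in the deficiency libraries with no count in wild type, at least 10.2-fold higher. Cyp9b2 was at 39.8 and 44 CPM against 13.9 and 8.57 CPM in wild type (log2 fold 1.86). Its levels were 41.9 and 39.5 CPM in the double-deletion libraries and 25.1 and 40.7 CPM in the libraries labelled gain of function. Cyp6d5 was at 35 and 53.9 CPM against 10.4 and 15.7 CPM in wild type (log2 fold 1.78). The P450 genes as a list were not shifted, since 23 folds were positive and 25 negative and the median was -0.02. DESeq2 called 0 of them and limma-voom 1.

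**Figure D2:**
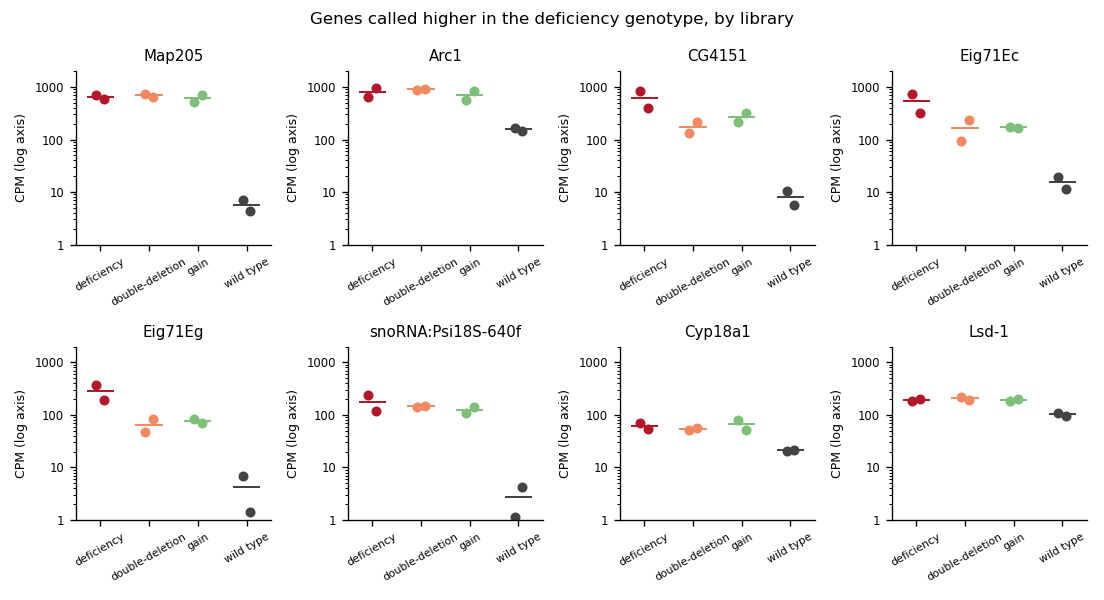
Levels of 8 genes called higher in the deficiency genotype, in CPM on a log axis, with a point for each library and a line at the mean of each group of 2. Wild type is lowest for each gene, and for Eig71Ec, Eig71Eg and CG4151 the deficiency libraries are above the double-deletion libraries and those labelled gain of function.

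Several rises of unknown function were as large. CG4151 was at 833 and 395 CPM in the deficiency libraries, 136 and 216 CPM in the double-deletion libraries, and 10.4 and 5.71 CPM in wild type (log2 fold 6.19, SE 0.59, edgeR adjusted p = 0.0091). CG33998 had 339 counts in the deficiency libraries and 3 in wild type, a ratio of 102 with an exact 95% interval of 34.5 to 495. CG42460 had 109 counts against 1 in wild type, a ratio of 98.1 with an interval of 17.23 to 3908. These intervals cover counting error only. CG42460 was at 41 and 82.5 CPM in the deficiency libraries, 1.71 and 13.2 CPM in the double-deletion libraries, and 0 and 0.925 CPM in the libraries labelled gain of function. The deficiency libraries were the highest of the 8 in all 3 genes, and CG42460 was near the floor in every library but these and 1 double-deletion library.

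Several smaller rises were chosen for description after their values were seen. The cathepsin inhibitor crammer (cer), which acts in long-term memory, was at 127 and 224 CPM in the deficiency libraries against 72.9 and 67.1 CPM in wild type (log2 fold 1.32, edgeR adjusted p = 0.036). The serine protease Tequila, which also acts in long-term memory, was at 158 and 229 CPM against 86.8 and 104.3 CPM in wild type (log2 fold 1.02, edgeR adjusted p = 0.044). The cathepsin L-type gene CG11459 (now CtsL3) was at 127 and 234 CPM against 57.9 and 54.3 CPM in wild type (log2 fold 1.68, edgeR adjusted p = 0.02). In these 3 genes deficiency replicate 2 was the highest of the 4 libraries. Pastrel (pst), which acts in memory and in resistance to viruses, was more even, at 162 and 178 CPM against 68.3 and 61.4 CPM in wild type (log2 fold 1.39, edgeR adjusted p = 0.019). The homeobox gene scarecrow (scro) was at 79.6 and 49.5 CPM against 23.1 and 18.6 CPM in wild type (log2 fold 1.61).

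Of 19 tested members of the fat body and lipid list, 2 rose, beside 0.562% of all genes tested. Lsd-1, the perilipin that coats lipid droplets, was at 188 and 199 CPM in the deficiency libraries, 221 and 193 CPM in the double-deletion libraries, and 109.9 and 94.3 CPM in wild type (log2 fold 0.92, edgeR adjusted p = 0.04). Mtp, the triglyceride transfer protein that loads lipoproteins, was at 152 and 173 CPM against 82.2 and 92.9 CPM in wild type (log2 fold 0.89, edgeR adjusted p = 0.044). Outside that list, the UDP-glucose dehydrogenase sugarless (sgl) had a log2 fold of 1.47, the glucose transporter CG10960 (now nebu) one of 0.89, and the extracellular superoxide dismutase CG9027 (now Sod3) one of 0.97. The list had no falls among 19 tested, 10 positive and 9 negative folds, and a median log2 fold of 0.17 that ranged from -0.09 to 0.22 over the alternatives. The summed level of 5 fat body markers was 35896.5 and 49376.4 CPM in the deficiency libraries and 28207.6 and 25505.3 CPM in wild type. It was 27947.7 and 31548.5 CPM in the double-deletion libraries, and 36365.9 and 40362.0 CPM in those labelled gain of function. Among these markers the larval storage protein receptor Fbp1 was at 19030.3 and 27456 CPM in the deficiency libraries and 12036 and 10329 CPM in wild type. Fbp1 did not pass the test (log2 fold 1.06, edgeR adjusted p = 0.072). RfaBp (now apolpp) was also higher in both deficiency libraries than in both wild-type libraries. Lsp1alpha, at 212 and 814 CPM against 501 and 391 CPM in wild type, overlapped. Lsp1beta, at 1620 and 3520 CPM against 2000 and 1860 CPM, did so too. Lsp2 had too few counts to be tested. The part of fat body in the rises of this paragraph was not tested.

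Markers of larval salivary gland and gut were near the detection floor in wild type. The glue gene Sgs7 was at 14.47 and 28.6 CPM in the deficiency libraries, 0 and 0.775 CPM in the double-deletion libraries, and 2.31 and 1.43 CPM in wild type (adjusted p = 0.06, edgeR). Jon65Ai, a digestive serine protease, was at 13.3 and 19.8 CPM in the deficiency libraries, 1.62 and 33.3 CPM in the libraries labelled gain of function, and had no count in wild type. The other markers had too few counts to be tested. Sgs8 was at 3.62 and 5.5 CPM in the deficiency libraries against 0 and 1.43 CPM in wild type. Sgs3, at 6.03 and 1.1 CPM against 1.16 and 4.29 CPM, overlapped. Jon25Biii, Amy-p and alphaTry did not separate the 2 genotypes either. Only 8 of 46 listed glue and digestive genes had enough counts to be tested, and members with almost no wild-type counts passed that filter only through the libraries in which they were high, so no median is given. None of the 8 was called by edgeR, DESeq2 or limma-voom. Of the 8, 6 had positive and 2 negative folds. At an unadjusted p under 0.05, 2 were higher and 1 lower, beside 7.31% and 10.2% of all genes tested.

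Small nucleolar RNAs, which guide modification of ribosomal RNA, gave 7 of the rises and 1 of the falls. The 2 with the largest folds guide pseudouridylation of 18S rRNA. snoRNA:Psi18S-640f was at 242 and 118 CPM in the deficiency libraries, 141.9 and 149.5 CPM in the double-deletion libraries, and 1.16 and 4.29 CPM in wild type (log2 fold 6.06, SE 0.54, edgeR adjusted p = 0.0014). snoRNA:Psi18S-525i was at 39.8 and 48.4 CPM in the deficiency libraries against 1.16 and 0 CPM in wild type, 77 counts against 1. snoRNA:Psi18S-525c, from the family that shares its target site, went the other way and was at 39.8 and 16.5 CPM in the deficiency libraries, 28.2 and 28.7 CPM in the double-deletion libraries, and 118 and 147 CPM in wild type (log2 fold -2.24, edgeR adjusted p = 0.036). Copies of 1 family can share reads, so the split between these copies is uncertain.

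The other snoRNA rises were smaller and mostly of abundant RNAs. snoRNA:Psi28S-2442b was at 1337 and 1122 CPM in the deficiency libraries against 545 and 489 CPM in wild type (log2 fold 1.25, edgeR adjusted p = 0.031). snoRNA:Me28S-A982b was at 555 and 384 CPM against 208 and 219 CPM in wild type (log2 fold 1.14, edgeR adjusted p = 0.035). snoRNA:Me28S-U3344b and snoRNA:MeS28-G3277a, which had log2 folds of 1.49 and 0.95, stood at 32.4 and 27.1 CPM and at 178 and 164 CPM in wild type. By class, the C/D box RNAs, which guide 2'-O-methylation, had 4 rises and no falls among 82 tested, with 76 positive folds and a median of 0.62 that ranged from 0.40 to 0.88 over the alternatives. DESeq2 called 7 of them higher and limma-voom 0. Of all 9252 genes tested, 0.562% rose and 4679 had positive folds. The H/ACA RNAs aimed at 18S rRNA had 2 rises and 1 fall among 43 (median 0.35, range 0.20 to 0.60), and those aimed at 28S rRNA had 1 rise and no falls among 57 (median 0.32, range 0.12 to 0.58). C/D box levels summed to 42311.6 and 29224.2 CPM in the deficiency libraries, 34950.0 and 34178.9 CPM in the double-deletion libraries, and 21523.1 and 24586.7 CPM in wild type. Small RNA genes took 15.7% and 11.1% of counts in the deficiency libraries and 10.4% and 11.8% in wild type, and the part of that share in these rises was not tested. Without small RNA genes in the fit, 67 genes were higher and 150 lower.

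The falls held many genes of the male germline. Of 8 listed sperm leucyl aminopeptidases, a family among the most abundant proteins of fly sperm, 6 fell. CG6372 (now S-Lap1) was at 109 and 122 CPM in the deficiency libraries, 247 and 192 CPM in the double-deletion libraries, 131 and 185 CPM in the libraries labelled gain of function, and 351 and 361 CPM in wild type (log2 fold -1.62, SE 0.21, edgeR adjusted p = 0.0054). CG4750 (now loopin-1), of the same family, was at 44.6 and 73.7 CPM in the deficiency libraries, 149.6 and 115 CPM in the double-deletion libraries, and 218 and 227 CPM in wild type (log2 fold -1.90, SE 0.30, edgeR adjusted p = 0.019). In both genes the deficiency libraries were lowest and the wild-type libraries highest, without overlap. CG32351 (now S-Lap2), CG32063 (now S-Lap3), CG32064 (now S-Lap4) and CG13340 (now S-Lap7) also fell, with log2 folds of -1.62, -1.54, -1.60 and -1.33 and edgeR adjusted p of 0.026, 0.031, 0.042 and 0.041. The other two did not pass the test: CG18369 (now S-Lap5) was at 10.9 and 16.5 CPM in the deficiency libraries against 23.1 and 25.7 CPM in wild type, and CG4439 (now S-Lap8) at 26.5 and 75.9 CPM against 156 and 196 CPM in wild type.

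Genes of sperm structure and metabolism were also among the falls. betaTub85D, the testis tubulin of the sperm tail axoneme, was at 72.3 and 96.8 CPM in the deficiency libraries, 145 and 129 CPM in the double-deletion libraries, and 206 and 229 CPM in wild type (log2 fold -1.36, SE 0.25, edgeR adjusted p = 0.03). The testis gamma-tubulin ring genes CG7716 (now t-Grip84) and CG18109 (now t-Grip91) had log2 folds of -1.68 and -1.73, and the tubulin glycylase CG11201 (now TTLL3B) one of -1.65. The testis thioredoxin TrxT was at 32.6 and 28.6 CPM in the deficiency libraries against 90.2 and 97.1 CPM in wild type (log2 fold -1.61, edgeR adjusted p = 0.049). Hsp60B, a chaperonin needed for spermatogenesis, was at 21.7 and 28.6 CPM against 108 and 82.9 CPM in wild type (log2 fold -1.92, edgeR adjusted p = 0.026). Among testis copies of general cell proteins 3 more fell, the fumarase CG31874 (now Fum4) with a log2 fold of -2.55, the glycerophosphate oxidase CG2137 (now Gpo2) with -2.09 and the proteasome subunit Prosbeta5R1 with -2.39, while others, such as Cyt-c-d, Porin2 and Rpt3R, did not pass the test.

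A list of 83 genes known from the male germline was put together after the values were seen and serves as a description. Of its 62 tested members, 61 had negative folds and 16 fell, with none called higher, and the median log2 fold was -1.44. Among all genes tested, 49.4% had negative folds, 1.11% fell and the median was 0.01. The level summed over all 83 was 1232.2 and 1616.7 CPM in the deficiency libraries, 2811.7 and 2519.6 CPM in the double-deletion libraries, 1636.8 and 2788.2 CPM in the libraries labelled gain of function, and 3942.2 and 3935.9 CPM in wild type. The deficiency libraries were the lowest of the 8 and the wild-type libraries the highest. Against the double-deletion genotype the median log2 difference was -0.89, with no member called. The number of members that fell was 1 without deficiency replicate 1, 10 without deficiency replicate 2, 9 without either double-deletion library, 25 without either library labelled gain of function and 0 without either wild-type library, while the median fold stayed between -1.68 and -1.36 under each alternative tried.

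The labelled tissue is head, which holds no testis. Of the defining testis markers, bam and aly had too few counts to be tested. Mst87F was at 10.9 and 49.5 CPM in the deficiency libraries and 74.1 and 95.7 CPM in wild type. The neuronal marker elav was at 101 and 87.1 CPM in wild type. The 4 markers dj, bam, aly and Mst87F summed to 27.7 and 68.2 CPM in the deficiency libraries, 89.7 and 76.0 CPM in the double-deletion libraries, and 127.3 and 144.3 CPM in wild type. The sperm tail gene don juan (dj) was at 12.1 and 16.5 CPM in the deficiency libraries and 39.3 and 38.6 CPM in wild type, and did not pass the test (log2 fold -1.43, edgeR adjusted p = 0.061). The 52 genes that the annotation assigns to chromosome Y had 7 and 9 counts in the deficiency libraries and 28 and 21 counts in wild type, and the 1 tested had a log2 fold of -1.36. The Y-linked fertility genes kl-3 and kl-5 were not matched to that annotation and are not in those totals. kl-3 had 8 and 3 counts in the deficiency libraries against 6 and 8 in wild type, and kl-5 had 7 and 5 counts against 29 and 10, neither called. The male dosage compensation RNA roX1 was at 942 and 1048 CPM in the deficiency libraries against 1165 and 1099 CPM in wild type, and roX2 at 203 and 364 CPM against 412 and 427 CPM, neither called. Yolk protein genes of female fat body had 8 and 14 counts in the deficiency libraries and 13 and 10 counts in wild type, all 3 of them too low to test. The part of testis RNA or of the share of males in the male germline falls was not tested.

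Outside that list 87 genes fell, and 85 of all 103 falls carry only a CG or CR number in the files. CG5089, which the annotation does not name further, had the smallest p of all falls. It was at 36.2 and 58.3 CPM in the deficiency libraries, 127 and 147 CPM in the double-deletion libraries, and 272 and 243 CPM in wild type (log2 fold -2.44, edgeR adjusted p = 0.0054). CG31787 had no count in the deficiency libraries, 12.8 and 11.6 CPM in the double-deletion libraries and 13.9 and 7.14 CPM in wild type, which is at least 6.3-fold lower. The sugar transporter sut4 was at 9.64 and 5.5 CPM in the deficiency libraries, 27.4 and 24.8 CPM in the double-deletion libraries, and 35.9 and 60 CPM in wild type (log2 fold -2.64, edgeR adjusted p = 0.02).

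**Figure D3:**
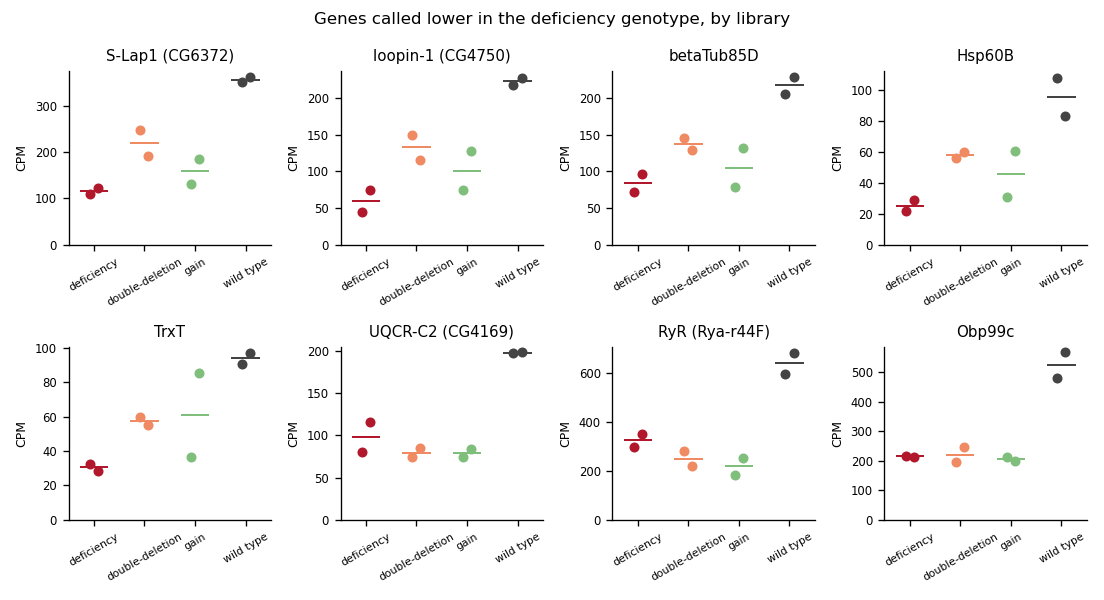
Levels of 8 genes called lower in the deficiency genotype, in CPM, with a point for each library and a line at the mean of each group of 2. The sperm genes of the upper row and TrxT are lower in the deficiency than in the double-deletion libraries, while UQCR-C2, RyR and Obp99c are below both wild-type levels in each of the other 6 libraries.

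Among falls of other kinds, the ryanodine receptor Rya-r44F (now RyR), the calcium release channel of the endoplasmic reticulum, was at 298 and 352 CPM in the deficiency libraries, 280.4 and 219 CPM in the double-deletion libraries, and 596 and 681 CPM in wild type (log2 fold -0.97, edgeR adjusted p = 0.044). The odorant-binding protein Obp99c was at 217 and 214 CPM in the deficiency libraries, 195 and 248 CPM in the double-deletion libraries, and 481 and 569 CPM in wild type (log2 fold -1.28, edgeR adjusted p = 0.0097). In both genes the libraries of the deficiency and double-deletion genotypes were at like levels and below wild type. The mitochondrial aldehyde dehydrogenase Aldh was at 54.3 and 75.9 CPM in the deficiency libraries against 189 and 224 CPM in wild type (log2 fold -1.66, edgeR adjusted p = 0.0091). The transmembrane Kekkon protein kek2 averaged 37.6 ± 6.51 CPM against 106 ± 8.65 CPM in wild type (SD, n = 2 each; log2 fold -1.50, edgeR adjusted p = 0.026). The heart collagen-like matrix protein pericardin (prc) had a log2 fold of -1.21 and the sulfotransferase CG16733 (now St2) one of -1.05.

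The lists of respiratory complexes and mitochondrial ribosomal proteins held 2 called falls. They were 1 of 22 tested genes of complexes II to IV and 1 of 57 mitochondrial ribosomal proteins, beside 1.11% of all genes tested. CG4169 (now UQCR-C2), a core subunit of respiratory complex III, was at 80.8 and 115 CPM in the deficiency libraries, 74.4 and 84.5 CPM in the double-deletion libraries, and 197 and 199 CPM in wild type (log2 fold -1.01, SE 0.22, edgeR adjusted p = 0.044). The mitochondrial ribosomal protein mRpL37 was at 19.3 and 29.7 CPM against 63.6 and 82.9 CPM in wild type (log2 fold -1.56, edgeR adjusted p = 0.044). DESeq2 and limma-voom called 0 genes in the lists that hold them. The folds of those lists were small and mostly negative. Of the 22 genes of complexes II to IV, 20 had negative folds, 12 of them at an unadjusted p under 0.05, with a median of -0.57. No complex I gene was called among 31 tested by edgeR, DESeq2 or limma-voom, but all 31 folds were negative, 11 of them at an unadjusted p under 0.05, a threshold at which 10.2% of all genes tested were lower. The complex I median was -0.61, beside -1.02 in the double-deletion genotype and -1.26 in the libraries labelled gain of function, over the same wild-type libraries. ATP synthase likewise had no call by these tools among 13 genes, 13 negative folds, 5 of them at an unadjusted p under 0.05, and a median of -0.50. Of 57 mitochondrial ribosomal proteins, 1 fell and 51 were negative (median -0.57), while the 80 tested cytosolic ribosomal proteins had no call and a median of -0.06. Complex I levels summed to 1329.8 and 1562.8 CPM in the deficiency libraries, 1031.2 and 1057.1 CPM in the double-deletion libraries, and 1948.5 and 2351.5 CPM in wild type.

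Contractile genes of muscle had the same pattern without a call. Of 33 tested, 32 had negative folds. The median log2 fold was -0.61 in the deficiency genotype, -1.32 in the double-deletion genotype and -1.68 in the libraries labelled gain of function. The summed level of the 33 genes was 20462.0 and 28437.9 CPM in the deficiency libraries and 31736.7 and 42876.0 CPM in wild type. It was 15172.5 and 16025.8 CPM in the double-deletion libraries, and 9021.1 and 15015.6 CPM in those labelled gain of function. The deficiency and wild-type libraries did not overlap, but the 2 wild-type libraries were further apart than deficiency replicate 2 and wild-type replicate 1. At an unadjusted p under 0.05, 9 of the 33 were lower and 0 higher, beside 10.2% and 7.31% of all genes tested, and DESeq2 and limma-voom called 0. The deficiency median ranged from -0.74 to -0.37 over the alternatives. Myosin heavy chain (Mhc) was at 3818 and 5595 CPM in the deficiency libraries, 2592 and 2537 CPM in the double-deletion libraries, and 6783 and 10484 CPM in wild type (log2 fold -0.88, edgeR adjusted p = 0.34). Arginine kinase (Argk), which buffers ATP in muscle and nerve, was at 1024 and 1217 CPM in the deficiency libraries and 2012 and 1683 CPM in wild type (log2 fold -0.72, edgeR adjusted p = 0.081).

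**Figure D4:**
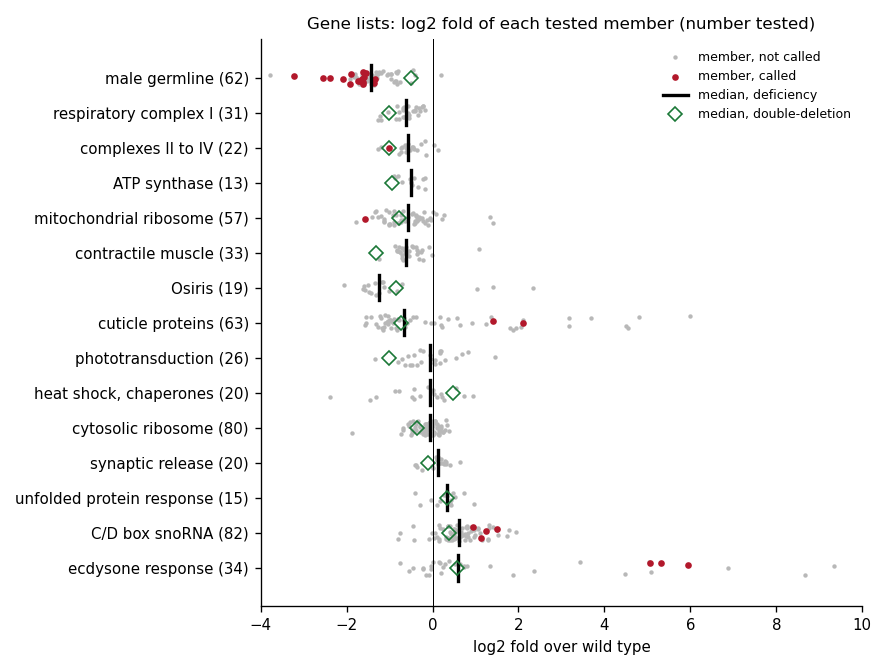
Log2 fold over wild type of each tested member of 15 gene lists in the deficiency genotype, with called members in red. Black bars mark the deficiency median and open diamonds the double-deletion median; the male germline median is -1.44 and -0.50, and that of contractile muscle -0.61 and -1.32.

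Cuticle genes varied between the 2 deficiency libraries. The Osiris genes, expressed while cuticle is laid down, summed to 5181.8 CPM in deficiency replicate 1 and 1310.9 CPM in deficiency replicate 2, against 5736.9 and 8206.0 CPM in wild type. Osi9 was at 600.4 and 145 CPM in the deficiency libraries and 703 and 953 CPM in wild type, with a log2 fold of -1.15 that did not pass the test. Of 19 tested Osiris genes 16 had negative folds, none was called by edgeR or limma-voom and 2 were called lower by DESeq2; at an unadjusted p under 0.05, 1 was higher and 4 were lower, beside 7.31% and 10.2% of all genes tested. Their median was -1.25. It was -2.50 to -0.46 when single libraries were left out or settings changed. The cuticle proteins had 2 rises and no falls among 63 tested, beside 0.562% and 1.11% of all genes tested. They had 39 negative folds and a median of -0.65 that ranged from -0.89 to 0.00. The rises were Ccp84Ag, at 25.3 and 46.2 CPM in the deficiency libraries and 9.26 and 7.14 CPM in wild type, and Cpr78E, at 61.5 and 84.7 CPM against 25.5 and 30 CPM in wild type. Tyrosine hydroxylase (ple), which makes the precursor of dopamine and of tanning agents, was at 709 and 1411 CPM in the deficiency libraries, 143 and 440.1 CPM in the double-deletion libraries, and 75.2 and 103 CPM in wild type, with a spread that left it uncalled (log2 fold 3.58, edgeR adjusted p = 0.14).

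Neuronal lists were near the median of all genes. The 20 tested genes of synaptic release had no call and a median log2 fold of 0.13, and 22 ion channel genes had none and a median of 0.02. The phototransduction genes had no call among 26. Their median was -0.05 in the deficiency genotype, ranging from -0.55 to 0.18 over the alternatives. It was -1.01 in the double-deletion genotype and -1.24 in the libraries labelled gain of function. Summed over that list, the level was 1797.6 and 2729.6 CPM in the deficiency libraries and 2677.5 and 2334.4 CPM in wild type. It was 1458.4 and 1481.8 CPM in the double-deletion libraries, and 1165.6 and 1506.5 CPM in those labelled gain of function. In 23 further lists, with 398 tested entries in all, edgeR and limma-voom called none and DESeq2 called 4 higher, in the lists of antimicrobial peptides, neuropeptides, neurotransmitter genes and tanning. At an unadjusted p under 0.05, 35 entries were higher and 15 lower, beside 7.31% and 10.2% of all genes tested. These lists cover RNA-binding proteins, splicing, snRNA, tRNA, glial, neuropeptide, neurotransmitter, chemoreceptor, clock, eye pigment, chitin, tanning, immune, hemocyte, cell cycle, cell death, autophagy, proteasome, unfolded protein response, insulin signalling, glycolysis and citric acid cycle genes. Their medians lay between -0.54 (tRNA) and 0.49 (antimicrobial peptides), and between -1.12 and 0.99 over the alternatives. Of 15 citric acid cycle genes, 4 were lower at an unadjusted p under 0.05 (median -0.31). Of 15 unfolded protein response genes, 5 were higher at that threshold (median 0.34). The heat shock and chaperone genes had no call among 20, with a median of -0.06 in the deficiency genotype and 0.48 in the double-deletion genotype.

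Genes next to TBPH were read in annotation order to see the levels of the region that the deficiency could cover. Of the 10 tested genes on each side, 16 of 20 had negative folds and none was called. The median log2 fold was -0.25, beside -0.10 in the double-deletion genotype, whose flies carry no deficiency, and -0.12 in the libraries labelled gain of function. Of the 30 on each side, 45 of 60 had negative folds with a median of -0.30. That median was -0.20 in the double-deletion genotype and -0.18 in the libraries labelled gain of function. Over the 11 tested genes centred on TBPH the median was -0.60, beside -0.30 in the double-deletion genotype. Lower windows of 11 genes occurred elsewhere. The lowest in the deficiency genotype was -1.46 on the same arm, 2R. It was -1.5 on 2L, -1.34 on 3R, -1.03 on X, -0.67 on 3L and -0.06 on chromosome 4. For the nearest 20 genes, 3 were lower and 0 higher at an unadjusted p under 0.05, beside 10.2% and 7.31% of all genes tested, DESeq2 and limma-voom called 0, and the median was -0.40 without deficiency replicate 2, -0.49 without wild-type replicate 1, -0.09 without wild-type replicate 2 and -0.43 with a minimum count of 50. For the 60 genes that minimum gave -0.46. Of the 60 genes 1 fell, CG5539, beside falls in 1.11% of all genes tested. CG5539 was at 3.62 and 1.1 CPM in the deficiency libraries, 15.4 and 20.1 CPM in the double-deletion libraries, and 22 and 18.6 CPM in wild type (log2 fold -3.08, SE 0.60, edgeR adjusted p = 0.035). Its deficiency levels rest on 3 and 1 counts, the second under the floor of 3 counts. Besides CG5539 the lowest log2 folds were those of CG15800 (-3.353) and CG5398 (now Eglp1, -2.728), neither called. CG15800 was at 0 and 2.2 CPM in the deficiency libraries and 11.6 and 14.3 CPM in wild type. Eglp1 was at 0 and 6.6 CPM against 27.8 and 18.6 CPM in wild type. Their log2 folds were -1.278 and -1.037 in the double-deletion genotype and -2.255 and -1.563 in the libraries labelled gain of function. The genes directly beside TBPH were wibg (now Pym), at 6.03 and 5.5 CPM in the deficiency libraries against 10.4 and 7.14 CPM in wild type, and CG4585 (now Cpes), at 32.6 and 29.7 CPM against 13.9 and 27.1 CPM, neither called. The lowest folds among the nearest 20 were those of 2 uncalled genes. The ribosome assembly factor eIF6 was at 10.9 and 6.6 CPM in the deficiency libraries and 20.8 and 17.1 CPM in wild type, and bgcn, a partner of the germline differentiation factor Bam, at 8.44 and 2.2 CPM against 8.1 and 17.1 CPM in wild type. By chromosome arm, 2L held the most falls, 30 of 1617 tested genes (1.86%), and X held 6 of 1382 (0.434%).

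**Figure D5:**
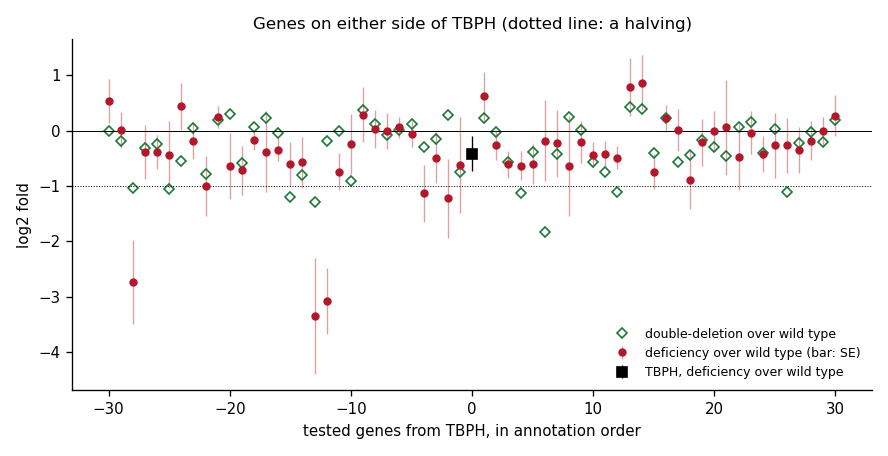
Log2 fold over wild type of the 30 tested genes on each side of TBPH in annotation order, as red points with SE bars for the deficiency genotype and open diamonds for the double-deletion genotype. The dotted line at -1 marks a halving; the deficiency points centre on -0.30, and CG5539, 12 tested genes from TBPH, is at -3.08.

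Set directly against the double-deletion genotype, the deficiency genotype had 0 called genes in either direction, 0% of 9252 tested, with a smallest adjusted p of 0.0628 (edgeR quasi-likelihood test). At an unadjusted p under 0.05, 377 genes were higher and 492 lower. DESeq2 called 5 higher and 3 lower, and limma-voom 0 in each direction. The gene with the smallest p was CG13360, at 16.9 and 13.2 CPM in the deficiency libraries and 76.1 and 69 CPM in the double-deletion libraries, with 20.8 and 24.3 CPM in wild type. Next was the heat shock gene Hsp68, at 187 and 359.6 CPM in the deficiency libraries and 1376 and 1097 CPM in the double-deletion libraries, with 362 and 403 CPM in wild type (log2 difference -2.18, edgeR adjusted p = 0.073). Hsf, the heat shock transcription factor, was at 111 and 107 CPM in the deficiency libraries and 243 and 243 CPM in the double-deletion libraries, with 137 and 130.0 CPM in wild type. In these 3 genes the double-deletion libraries stood above the others. CG13335 went the other way, at 53 and 56.1 CPM in the deficiency libraries and 7.69 and 13.2 CPM in the double-deletion libraries, with 10.4 and 10 CPM in wild type; it rose against wild type (log2 fold 2.40, edgeR adjusted p = 0.019).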

How the data were processed

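The deposited files hold raw counts per gene for each of the 8 libraries. The authors counted reads with HTSeq on build dm3, per the submitters' processing notes; no aligner, strand setting, rule for multiple matches or version is named there or in the labels. Files carry 15141 gene names. Current names and gene order came from reference annotations of a later build, so no coordinates are given. Counts were filtered with filterByExpr (minimum count 10), scaled by TMM and fitted with edgeR 4.0.16 in R 4.3.3 (robust quasi-likelihood, 1 mean for each of 4 genotypes over all 8 libraries, common biological coefficient of variation 20.7%). P-values were adjusted by Benjamini-Hochberg over all genes tested and called at 0.05. Alternatives used limma 3.58.1 (voom), DESeq2 1.42.0, other filters and scalings, and each library left out. The procedure was tested on simulated data. Intervals of ratios are exact and cover counting error only. Total counts ran from 716027 to 1302855 over the 8 libraries; a level under 3 counts was read as not detectable. Members and lists were chosen with earlier results of these data known. Genes were named by a rule: the largest rises and falls, the most abundant called genes, up to 3 members of each list and the neighbours of TBPH. Genes named outside it, most of the male germline genes among them, were chosen after their values were seen. Replicate numbers did not pair libraries: same-numbered libraries of the deficiency genotype and wild type had a correlation of deviations of -0.0413, and other genotype pairs -0.0357 to 0.172.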

Additional observations from a re-analysis of the deposited data

How the results depend on the processing

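The count of called genes depended most on the wild-type libraries and on the estimate of spread. Against wild type, where 52 genes were higher and 103 lower, edgeR gave 108 and 210 with no filter on low counts, 12 and 28 with a minimum count of 50, 107 and 225 with only the 4 libraries compared, and 8 and 6 at an adjusted p of 0.01; limma-voom gave 10 and 28. Leaving out 1 library gave 4 to 157 higher and 0 to 351 lower. With replicate number as a block, a pairing the data did not bear out, it gave 72 and 130. Against the double-deletion genotype, where 0 were called, there were 2 higher and 5 lower with no filter, 5 and 3 by DESeq2, 1 and 2 with the block, and 1 lower without small RNA genes; leaving out 1 library gave 0 to 12 in each direction. The median fold of the 10 genes on each side of TBPH was -0.43 with a minimum count of 50 and -0.49 to -0.09 with 1 library left out; that of the 30 was -0.46 and -0.33 to -0.20. TBPH stayed uncalled under each alternative tried, with log2 folds of -0.78 to -0.08. Of the genes named in the text 1 changed sign, the uncalled kl-3, with a log2 fold of 0.12 without deficiency replicate 2 (range -1.41 to 0.12 with 1 library left out). Relative log expression scaling left all 59 named calls in place and limma-voom left 18. With 716027 to 1302855 counts per library, levels under 2.3 to 4.19 CPM of the unscaled totals, depending on the library, could not be read.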
